A study of Caenorhabditis elegans with 6 samples.

Results

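The genes described here encode subunits of the mitochondrial machinery of oxidative phosphorylation, sorted by complex: 13 nuclear genes of complex I, 7 of complex III, 7 of complex IV and 9 of ATP synthase. They are 30 genes listed by name and all 6 protein-coding genes whose name starts with nduf-, 36 of the 19973 protein-coding nuclear genes of the WBcel235 annotation, and they were grouped by the complex they belong to. HIF-1::GFP binding was mapped by ChIP-seq with anti-GFP antibodies in whole L4 hermaphrodites grown at 20 °C on OP50 bacteria in room air. Both strains carried unc-119(ed3), the hif-1(ia4) null allele and odIs131, 1 integrated line of a genomic fosmid with hif-1::gfp and unc-119(+). The control strain had no egl-9 mutation, and the other strain also carried egl-9(sa307), which removes the hydroxylase that marks HIF-1 for degradation, so that HIF-1 was stable in air. Each genotype had 2 ChIP replicates and 1 pooled input, reduced in the deposited data to 1 peak list, so that no value below has a replicate spread. The depth of each library is not known, since the study's methods give only a range over all libraries. Tissues cannot be told apart in whole larvae.

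Electrons from NADH enter the respiratory chain at complex I, and those from succinate enter at complex II. Complex III passes them from ubiquinol to cytochrome c, and complex IV (cytochrome c oxidase) passes them from cytochrome c to oxygen. Complexes I, III and IV pump protons, and ATP synthase uses the proton gradient to make ATP. In most of these complexes a few subunits are encoded by mitochondrial DNA and the others by nuclear genes. HIF-1 is known in mammals for lowering the use of oxygen by mitochondria, partly by changing which isoforms of complex IV subunits are made. Its DNA site is the hypoxia response element, or HRE, with the core ACGTG or GCGTG.

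The sequences that carry the comparison are the peak centres themselves. For the members with a peak near a transcription start site (TSS) on chromosomes III and X, and for some related genes, the peak centre with 100 bases on each side is given below from the RefSeq WBcel235 genome, 5′ to 3′ on the strand of the gene, and each HRE core is in capitals. A core on the other strand therefore reads CACGT or CACGC. The windows of cox-5A (III:12905102-12905302), cox-6B (III:2785984-2786184), cox-6A (III:5080845-5081045) and ucr-2.1 (X:12018053-12018253) are all on the plus strand, and the first 3 belong to complex IV subunits.
cox-5A: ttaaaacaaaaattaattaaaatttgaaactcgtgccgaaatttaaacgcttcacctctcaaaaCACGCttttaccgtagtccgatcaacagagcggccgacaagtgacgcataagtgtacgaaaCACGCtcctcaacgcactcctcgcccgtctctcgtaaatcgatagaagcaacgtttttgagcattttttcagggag
cox-6B: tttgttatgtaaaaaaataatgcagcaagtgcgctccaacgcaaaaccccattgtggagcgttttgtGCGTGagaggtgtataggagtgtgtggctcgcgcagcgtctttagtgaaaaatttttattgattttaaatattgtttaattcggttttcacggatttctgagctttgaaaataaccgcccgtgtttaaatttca
cox-6A: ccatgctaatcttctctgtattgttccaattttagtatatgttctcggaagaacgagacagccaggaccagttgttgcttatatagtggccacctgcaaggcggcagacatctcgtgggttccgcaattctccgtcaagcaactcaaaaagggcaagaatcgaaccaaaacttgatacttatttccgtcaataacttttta
ucr-2.1: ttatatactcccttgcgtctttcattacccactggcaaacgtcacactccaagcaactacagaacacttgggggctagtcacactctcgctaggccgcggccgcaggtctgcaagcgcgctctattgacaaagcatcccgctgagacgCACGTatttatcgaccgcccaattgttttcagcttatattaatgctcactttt
The windows of F22B5.4 (II:8451522-8451722, plus strand) and F29B9.11 (IV:4660415-4660615, minus strand) belong to further complex IV genes, and that of mai-2 (IV:3385554-3385754, plus strand) to an inhibitor of ATP synthase. They are examples, chosen after their values were seen, of related genes of these complexes with a peak, and other related genes with strong peaks, such as sdha-1, are described without their sequence. The windows of cox-5B and atp-1, which held no core, are not printed. The palindrome CACGTG of mai-2 holds a core on each strand and counts as 2. For mai-1 (X:3116428-3116452, minus strand), whose peak lies in an untranslated region, only the core with 10 bases on each side is given.
F22B5.4: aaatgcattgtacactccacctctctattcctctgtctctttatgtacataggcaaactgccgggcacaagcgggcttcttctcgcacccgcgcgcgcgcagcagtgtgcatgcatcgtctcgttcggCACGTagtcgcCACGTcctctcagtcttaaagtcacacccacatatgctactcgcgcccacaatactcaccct
F29B9.11: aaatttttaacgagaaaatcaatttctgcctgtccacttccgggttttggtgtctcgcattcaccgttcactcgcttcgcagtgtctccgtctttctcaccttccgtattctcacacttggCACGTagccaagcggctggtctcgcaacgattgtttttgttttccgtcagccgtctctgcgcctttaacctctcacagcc
mai-2: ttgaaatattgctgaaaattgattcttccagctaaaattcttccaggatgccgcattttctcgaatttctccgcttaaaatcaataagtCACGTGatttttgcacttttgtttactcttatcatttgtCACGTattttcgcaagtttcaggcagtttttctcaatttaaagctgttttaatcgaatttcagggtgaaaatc
mai-1: gccgttgcctACGTGccaacggcca

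A gene counted as near a peak if at least 1 of its annotated TSSs was 1000 bp or less from a peak centre. Of the 36 members, 6 were near a peak of egl-9 mutants (16.7%), beside 453 of all 19973 protein-coding nuclear genes (2.27%). The 6 genes were distributed unevenly over the complexes. Complex IV held 4 of them (cox-5A, cox-5B, cox-6A and cox-6B, 57.1% of its 7 members), complex III 1 (ucr-2.1, 14.3% of 7), ATP synthase 1 (atp-1, 11.1% of 9) and complex I none of 13. The counts are descriptions, since genes of 1 complex are not replicates and the lists were drawn up with earlier results of these data known. In the control strain none of the 36 members was near a peak, beside 28 of all protein-coding genes (0.140%). That list held 52 nuclear peaks, and the list of egl-9 mutants 604.

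**Figure D1:**
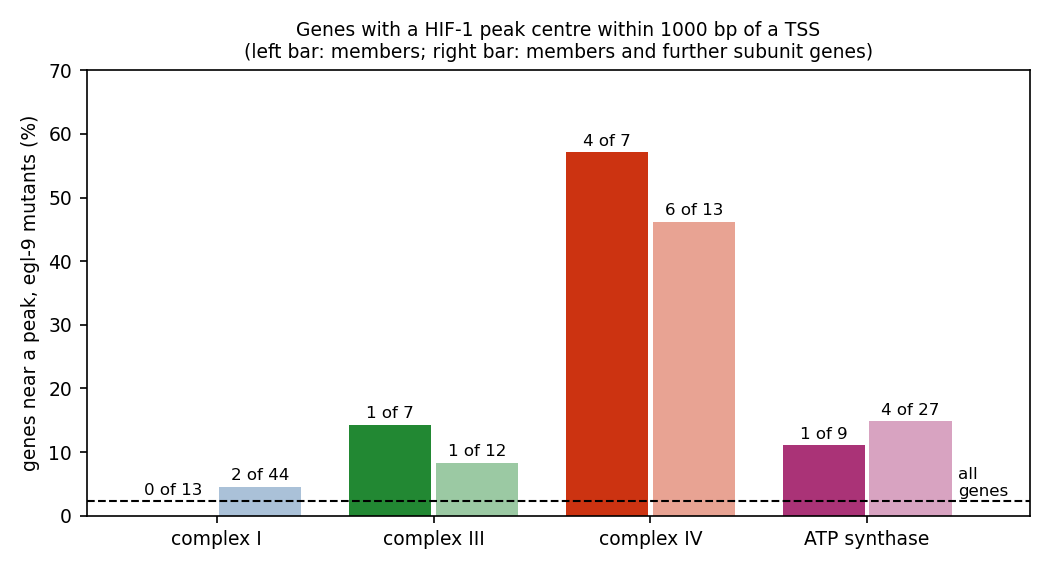
Percentage of genes of each complex with a HIF-1 peak centre of egl-9 mutants within 1000 bp of a TSS (vertical axis), for the members (solid bars) and for the members with further genes annotated as subunits or inhibitors (pale bars), with counts above each bar. Complex IV stands highest in both sets (4 of 7 and 6 of 13), and the dashed line marks the 2.27% of all protein-coding genes.

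Among the complex IV members the strongest peak lay upstream of cox-5A, which encodes subunit 5A (WBGene00012553). Its 444-bp peak (III:12904980-12905423) was intergenic, was centred 289 bp upstream of the only annotated TSS and had a signal of 165, which placed it at rank 70 of 604. Signal here means the height that the deposited list assigns to a peak, whose relation to the enrichment values of the study's methods is not known, and 88.4% of the peaks of the list were weaker. No other protein-coding gene had a TSS within 1000 bp, so that cox-5A was the only protein-coding candidate at this distance.

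The peak of cox-5B, for subunit 5B (WBGene00000371), had a signal of 81.1 (rank 266) at I:9788463-9788906. It was centred 40 bp upstream of the first of its TSSs and 324 bp upstream of the other, and no other protein-coding gene started within 1000 bp. At cox-6B, for subunit 6B (WBGene00022170), the signal was 61.9 (rank 454; III:2785862-2786305). This peak lay 118 bp upstream of the start of a short transcript of 553 bp and inside an intron of a long one, whose start was 86421 bp away, so that the gene is near a peak only through the short transcript.

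The cox-6B site was shared. Y71H2AM.20, annotated as an activator of protein phosphatase 2A, started 136 bp away on the opposite strand. Downstream on the same strand lay nduc-2, for a complex I subunit, which began 97 bp after the end of the short cox-6B transcript and 768 bp from the peak centre. One peak thus lay within 1000 bp of a complex IV and a complex I gene that follow one another.

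The weakest member peak was that of cox-6A, for subunit 6A (WBGene00006519). It had a signal of 55.6 (rank 581, with 3.81% of peaks weaker; III:5080723-5081166) and was also the farthest from its gene, 779 bp upstream of the nearest of 3 annotated TSSs. Its centre lay 47 bp from F54D8.7, an snRNA gene at III:5080798-5080898 on the minus strand, on the upstream side of that gene. Whether the snRNA gene has a part in this peak was not tested.

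The other complex IV members were not near a peak. For cox-4, which encodes subunit 4, the nearest centre was 4256 bp upstream, at a peak with a signal of 179 (rank 57) in the 5′ UTR of ints-4, 32 bp from the start of that gene. The nearest peak of cox-7C was that of cox-5B, 15513 bp downstream of its TSS. The gene cox-6C, for subunit 6C, lay farthest of this complex, at 528213 bp.

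In complex III the member near a peak was ucr-2.1 (WBGene00012158), which encodes core protein 2, a part of the matrix side of the complex. The intergenic peak (X:12017931-12018374) had a signal of 68.0 (rank 367) and was centred 276 bp upstream of ucr-2.1. It was nearer to nmat-1, for nicotinamide-nucleotide adenylyltransferase, an enzyme of NAD synthesis that starts 110 bp away on the opposite strand. Core protein 2 has further gene copies in the worm, and neither was near a peak: ucr-2.2 lay 27004 bp and ucr-2.3 43785 bp from the nearest centre. The Rieske protein gene isp-1, known for a mutation that slows respiration and lengthens life, was the farthest of this complex at 292789 bp.

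In ATP synthase the member near a peak was atp-1 (WBGene00010419), for the alpha subunit of the catalytic head. Its peak (I:12652062-12652505, signal 92.9, rank 197) was centred in the 5′ UTR, 7 bp downstream of the TSS. The divergent gene mcrs-1 started 197 bp from the centre. A second, weaker peak (signal 61.7, rank 457) lay 2536 bp downstream of the atp-1 TSS and 158 bp past the end of the gene. The beta subunit gene atp-2, whose product forms the catalytic head with ATP-1, lay 16899 bp from a centre, and the paralog pairs asb-1 (53666 bp) and asb-2 (246787 bp) for subunit b, and asg-1 (123573 bp) and asg-2 (26645 bp) for subunit g, were also not near one. The gene asb-2 was the farthest ATP synthase member.

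None of the 13 complex I members was near a peak. The nearest was nuo-4, for an accessory subunit, with a peak (signal 61.2, rank 462) centred 2993 bp downstream of its TSS and 210 bp past its end, where the nearest TSS was that of ogt-1. The genes of the core subunits gas-1 and nuo-1, of which gas-1 is known for mutants sensitive to volatile anaesthetics and nuo-1 binds NADH, lay 17338 bp and 54752 bp from a centre. The farthest gene was nuo-5, for the 75 kDa core subunit, at 1072657 bp. Complex I did contribute 2 genes of 44 once further genes annotated as subunits were included, as given below.

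**Figure D2:**
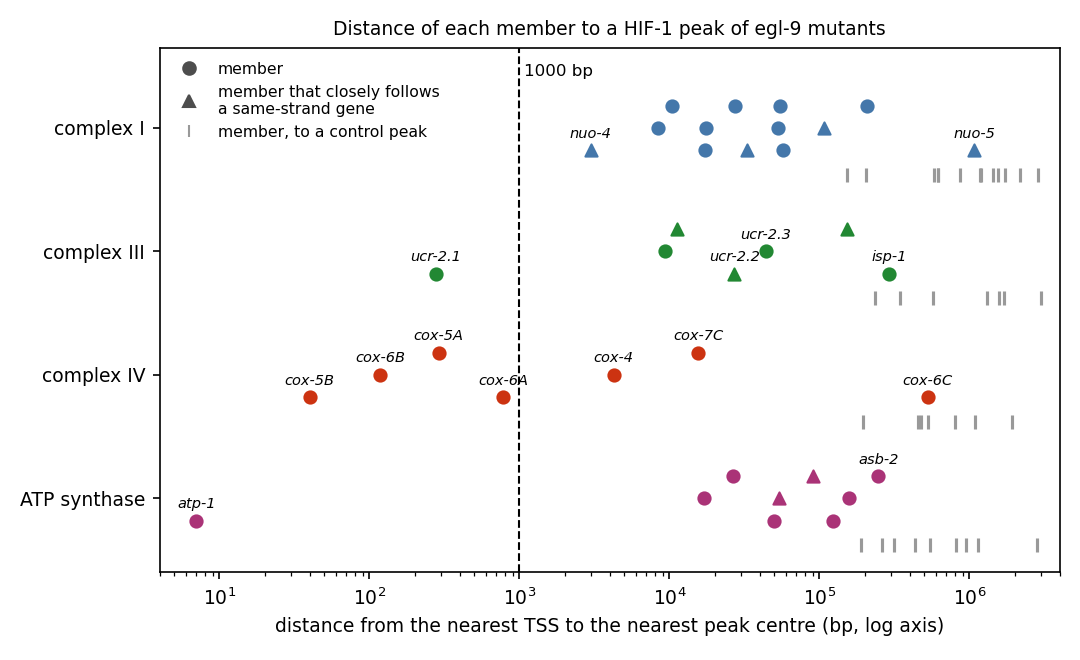
Distance in bp (log axis) from the nearest TSS of each of the 36 members to the nearest peak centre of egl-9 mutants, by complex; triangles are members that closely follow a gene on the same strand, and grey ticks are the distances of the same members to the nearest control peak. The 6 members left of the 1000-bp line lie at 7 to 779 bp, and the other 30 at 2993 to 1072657 bp.

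Of the members inside the limit of 1000 bp, cox-6A came closest to it, at 779 bp. The 6 members near a peak had distances of 7 to 779 bp, and 5 of them were within 500 bp. Within 500 bp complex IV kept 3 of its 4 genes. The next members were nuo-4 at 2993 bp and cox-4 at 4256 bp, and the median of the 30 members not near a peak was 46736 bp. To the control peaks, all 36 members had distances of 151650 to 2987689 bp.

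The peaks near members were of ordinary height for the list. Their signals of 55.6 to 165 had a median of 74.6, beside 76.7 for all 604 peaks (lowest 54.4, highest 838) and 78.4 for the strongest peak of each of the 453 genes near one. The peaks of cox-5A, atp-1 and cox-5B were above the median of the list, and those of ucr-2.1, of cox-6B and of cox-6A below it. Only cox-5A reached the lowest signal in the control list (141), although signals were not scaled between the genotypes. The control signals ranged to 671 with a median of 170.

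**Figure D3:**
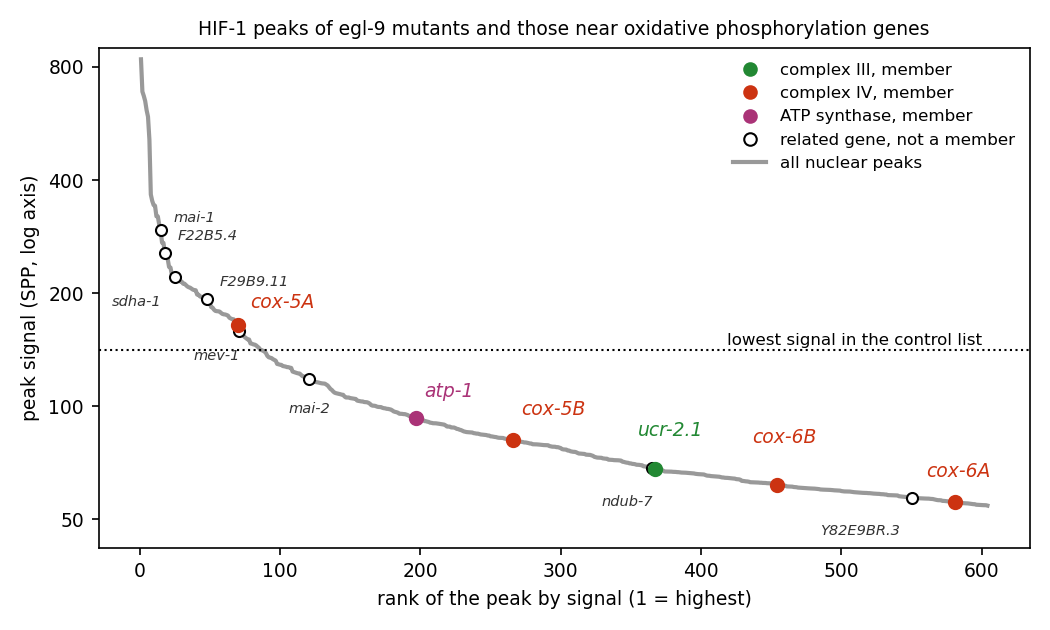
Signal (log axis) of the 604 nuclear peaks of egl-9 mutants in order of rank (grey line), with the peaks near the 6 members (coloured by complex) and near 8 related genes (open circles). Among members cox-5A is highest at rank 70, and mai-1, F22B5.4 and sdha-1 lie above it at ranks 15, 18 and 25.

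The HRE core was searched on both strands from 100 bp before to 100 bp after each peak centre, as in the windows printed above. It was present at 3 of the 6 members, cox-5A, cox-6B and ucr-2.1, beside 67.7% of all 604 peaks, 60.3% of those ranked below the median and 28.6% of windows of the same length centred 200 bp upstream of a gene. The cox-5A window held 2 cores, both GCGTG, starting 36 bp before and 25 bp after the centre, and 35.8% of all peaks held at least 2. The cox-6B window held 1 GCGTG, 33 bp before the centre, and the ucr-2.1 window 1 ACGTG, 48 bp after it. Of the peaks of complex IV members with a core, both had GCGTG and no ACGTG. Over all 604 peaks, with or without a core, 23.5% were in this state and 67.7% held any core.

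The peaks of atp-1 and cox-5B held no core in the window or in the whole 444 bp. That of cox-6A held none in the window and 1 in the whole peak. A missing core says only that these letters are not in the window. The windows of all 6 had 38.3% to 52.2% G and C, beside a median of 45.3% over all peaks and 33.8% over the upstream windows. Another short sequence, GAGAGA, was in the cox-5A window alone among the 6, beside 40.9% of all peaks.

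**Figure D4:**
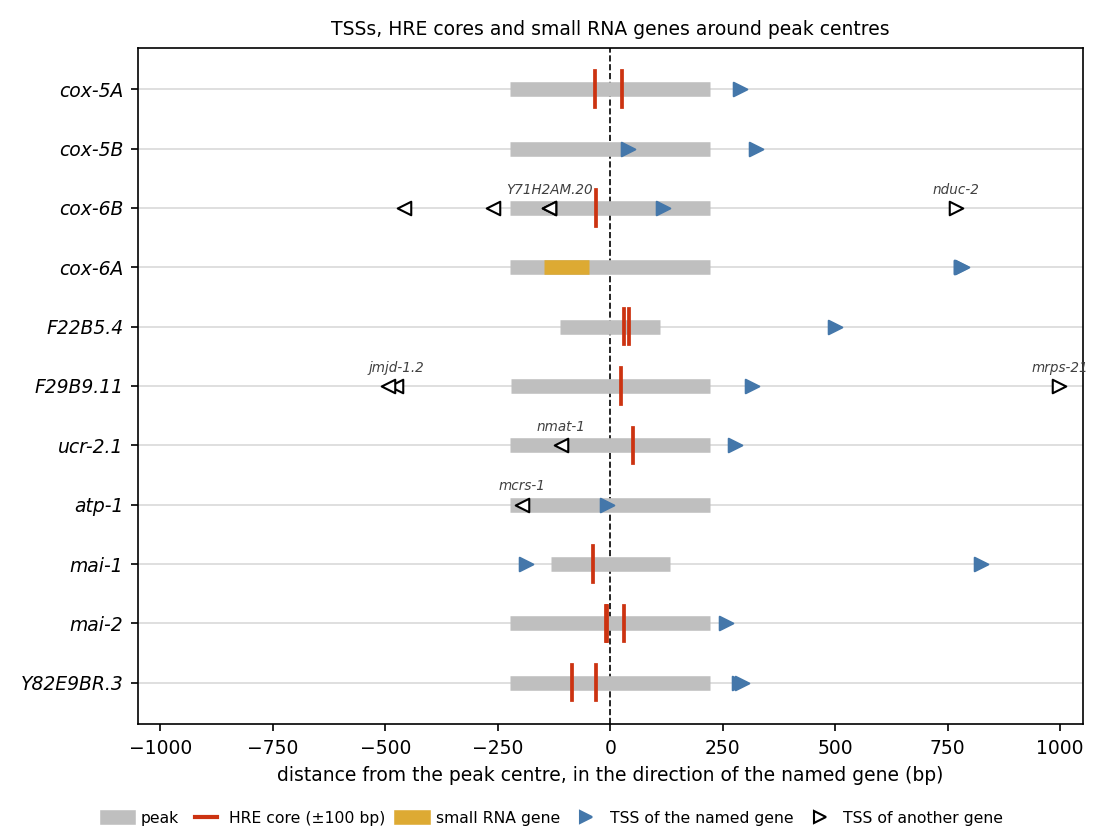
Position in bp from the peak centre, in the direction of the named gene (horizontal axis), of TSSs (triangles), HRE cores within 100 bp of the centre (red) and small RNA genes (yellow) at peaks (grey) near complex IV, complex III and ATP synthase genes. The cores of cox-5A flank the centre, the peaks of cox-5B and atp-1 hold no core, and the cox-6A peak holds an snRNA gene.

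An HRE core near a TSS was common, with or without a peak. Within 500 bp upstream to 100 bp downstream of any TSS, 26 of the 36 members had at least 1 core (72.2%), beside 66.4% of all protein-coding genes and 81.2% of those near a peak. All 7 complex III and all 7 complex IV members had one, against 8 of 13 in complex I and 4 of 9 in ATP synthase. Thus isp-1 had a core in this window and its nearest peak at 292789 bp, while atp-1 had a peak and no core there.

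Many worm genes lie in operons, where a downstream gene is transcribed from the promoter of the first. Operons are not marked in the annotation used here, so the gap to the next upstream gene on the same strand was taken in their place. Of the 36 members 9 followed such a gene within 500 bp (25.0%, beside 20.2% of all protein-coding genes), and none of these 9 was near a peak, nor was the first gene of any of their runs. They were 4 complex I genes, 3 complex III genes and 2 ATP synthase genes. No complex IV member was in this position, and all 6 members near a peak came from the 27 that did not follow closely. The same held for most genes of the genome. In all, 4025 protein-coding genes followed another gene closely, and only 55 of these were among the 453 genes near a peak. The absence of a peak at the 9 members, and the position of the 6, therefore do not set the members apart from other genes.

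Genes of tRNAs, snoRNAs and snRNAs were within 500 bp of 99 of the 604 peak centres (16.4%). Among the members this held for cox-6A alone. The other 5 member peaks were at least 24561 bp from such a gene. None of the 6 member peaks overlapped a control peak, beside 10.1% of all peaks of egl-9 mutants.

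Genes that act with these complexes were read in the same way, from lists that do not overlap the members. Of 5 complex II genes 2 were near a peak: sdha-1, for the flavoprotein subunit, with a signal of 221 (rank 25) 179 bp upstream, and mev-1, for the cytochrome b560 subunit, with 159 (rank 71) 114 bp upstream. A snoRNA gene, D2021.6, covered the centre of the sdha-1 peak, and jmjd-4 started 145 bp from that of mev-1 on the opposite strand. Both windows held 1 core.

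Both genes annotated as inhibitors of ATP synthase were near a peak. The ATPase inhibitor gene mai-1 had the highest signal of all genes examined here, 294 (rank 15; X:3116268-3116534). The centre lay 188 bp downstream of the start of a long transcript, in its 5′ UTR, and 823 bp upstream of the start of a short one, with 1 ACGTG. The next gene, gpd-2, for the glycolytic enzyme glyceraldehyde-3-phosphate dehydrogenase, began 2 bp after the short mai-1 transcript. The second inhibitor gene, mai-2, had a signal of 118 (rank 121), 256 bp upstream, with 3 cores by the count of both strands. Of the 6 other ATP synthase genes on this list, Y82E9BR.3, for subunit c, which forms the rotor ring, was near a peak (signal 57.1, rank 550, 287 bp upstream) with 2 GCGTG cores.

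Of 14 further complex I genes 1 was near a peak (7.14%). It was ndub-7, for a subunit of the membrane arm (signal 68.5, rank 365), 326 bp upstream, and the centre was nearer to mce-1, for methylmalonyl-CoA epimerase, which starts 152 bp away on the opposite strand. None of 10 genes for complex IV assembly, 8 for ubiquinone synthesis, and 6 for cytochrome c and the ADP/ATP carriers was near a peak, and neither was the 1 further complex III gene. The nearest of them was cyc-2.1, for cytochrome c, whose peak (signal 220, rank 26) lay 1074 bp upstream, just outside the limit. It follows rpl-20, a gene of the large ribosomal subunit, by 110 bp, and the peak was centred 308 bp upstream of rpl-20. Of 24 other genes listed with the TCA cycle, aco-2 (signal 83.6, 350 bp upstream) and mdh-1 (signal 153, 836 bp upstream) were near a peak (8.33%). This list also holds cytoplasmic enzymes, and mdh-1 is annotated as the cytoplasmic malate dehydrogenase. The gene of the mitochondrial malate dehydrogenase, mdh-2, lay 160376 bp from a peak centre. The elongation factor gene eef-1B.1 started 19 bp from the aco-2 centre, and F46E10.3 started 935 bp from that of mdh-1. Of 70 mitochondrial ribosomal protein genes mrpl-53 (signal 56.7) and mrps-21 were near one. This share of 2.86% was close to the 2.27% of all protein-coding genes, and mrps-21 lay 998 bp from a peak nearer to F29B9.11, described below. In all, 10 of these 146 genes were near a peak, beside 453 of all 19973 protein-coding genes.

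The annotation holds more subunit genes than the lists. A search of gene names and RefSeq products, made after the peaks had been seen, added 37 genes annotated as subunits of the 4 complexes. Some rest on a product name alone, such as ZK849.6 (NADH dehydrogenase subunit 1) and R11.4 (cytochrome c oxidase subunit II). Whether each encodes a working subunit was not tested, so the enlarged totals are approximate. Of the 37, 3 were near a peak of egl-9 mutants: nduc-2 (above) and the complex IV genes F22B5.4 and F29B9.11. This was 8.11%, beside 2.27% of all protein-coding genes. F22B5.4 is annotated as subunit VIa and had the strongest complex IV peak, with a signal of 256 (rank 18; II:8451511-8451733). Its centre lay in an intron of a long transcript, 499 bp upstream of the start of a short one, and held 2 ACGTG cores, 28 bp and 39 bp after the centre. No other protein-coding gene started within 1000 bp.

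F29B9.11 is annotated as polypeptide VIIc. Its stronger peak had a signal of 193 (rank 48; IV:4660293-4660736), centred 314 bp upstream with 1 ACGTG, and a second peak (signal 64.7, rank 415) overlapped it, 517 bp upstream. It was the only gene of the 4 complexes near a control peak. That peak had a signal of 144 (rank 46 of 52), was centred 414 bp upstream and overlapped both peaks of egl-9 mutants. Downstream on the same strand, mrps-21 began 113 bp after the end of F29B9.11 and 998 bp from the stronger centre, and jmjd-1.2, for a histone demethylase, started 476 bp away on the opposite strand.

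With all these genes counted, 13 of 96 genes annotated as subunits or inhibitors of the 4 complexes were near a peak of egl-9 mutants. This was 13.5%, beside 2.27% of all protein-coding genes. The complex IV gene cox-6B and the complex I gene nduc-2 share 1 peak. Complex IV had 6 of 13 (46.2%), ATP synthase 4 of 27 (14.8%), complex III 1 of 12 (8.33%) and complex I 2 of 44 (4.55%). This was the order seen above except that complex III and ATP synthase changed places. That change rests on mai-1 and mai-2, which are annotated as inhibitors of ATP synthase rather than as subunits.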

How the data were processed

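The study's methods state alignment of single-end reads with BWA, peak calling with the SPP pipeline and selection by reproducibility between replicates (IDR). WBcel235 is named in the submitters' processing notes. The signal of each peak was made by the authors with SPP and deposited as a column of 1 peak list per genotype. Peaks were ranked by it within a list. No scaling between genotypes is stated. The methods give other lowest enrichment values, so the column may be another quantity. A further column, where a q value usually stands, was left out. No column of per-sample values was present, so precision and replicate spread are unknown, and no test was run. For depth the methods give only a range over all libraries, and the depth of each is not known.

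Starts were read as 0-based. TSSs came from Ensembl release 115, and products, cores and sequences from RefSeq files of the same build. Many worm transcripts are trans-spliced, so true starts can lie upstream of annotated ones. The centre was the midpoint of a peak. Mitochondrial peaks were left out of the counts. Python 3.11.15, NumPy 2.4.6 and matplotlib 3.10.9 were used. The distance and core searches were tested on simulated data and recovered 200 of 200 planted peaks, 100 of 100 peaks beyond the limit and 200 of 200 windows.

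The members and lists were chosen with earlier results of these data known. Of the list names, 2 were not found and 1 was already a member. The genes named are every member near a peak, members within 5000 bp, listed paralogs, the nearest and farthest of each complex, related genes near a peak and genes sharing a member's peak. The genes gas-1, nuo-1, atp-2, cox-7C, cyc-2.1, mdh-2, F22B5.4 and F29B9.11, other neighbouring genes, and the search by product were added after values were seen. Alternatives covered distance, signal, start sites, small RNA genes, window and motif.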

Additional observations from a re-analysis of the deposited data

How the results depend on the processing

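Of 31 alternatives, 28 left the count within 1.5 times. Some of these could not move, since a count of 0 stays 0 when the distance is made smaller or start sites are left out. With the peaks above the median signal, 3 members were near a peak (cox-5A, cox-5B and atp-1, beside 1.16% of all protein-coding genes), and with peaks that reach the lowest control signal 1 was (cox-5A, 0.315%). With ACGTG alone, 1 member's peak held a core (ucr-2.1, beside 44.2% of all peaks). The members near a peak numbered 5 within 500 bp (beside 1.62% of all genes) and 8 within 5000 bp (6.41%). They numbered 5 when peaks at small RNA genes were left out (without cox-6A; 2.00%), when the most upstream TSS alone was used (without cox-6B; 2.06%) or when each peak was given to its nearest gene alone (without ucr-2.1; 2.62%). RefSeq start sites, chosen after seeing the data, gave 6 (2.19%). Leaving out peaks at small RNA genes together with those that overlap a control peak, also chosen then, gave 5 (1.90%). The control count was 0 at each distance tried. No paired analysis was possible because the lists hold no values per replicate, and for the same reason no replicate could be left out.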

Other observations

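The remaining subunits of the complexes are encoded by mitochondrial DNA, where both lists also held peaks. The list of egl-9 mutants had 19 peaks there, with signals of 103 to 2273 and a median of 648, and the control list had 18, with signals of 621 to 7628 and a median of 1825. The peaks overlapped 9 of the 12 mitochondrial protein-coding genes in each genotype and covered 46.4% of that genome in egl-9 mutants, against 41.1% in the control strain. On nuclear DNA the control list had 52 peaks against 604, so that the mitochondrial peaks did not show the difference in number that the nuclear ones did. Signals were not scaled between genotypes, and how mitochondrial DNA is represented in the input libraries was not tested.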
